A study of Mus musculus with 16 samples.

Results

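The RNA of motile spermatozoa from 8 mice fed a control diet (CD) was described here, without any comparison between diets. These 8 libraries, CD 1 to CD 8, are 8 of the 16 in the series and were chosen by their diet label alone. The males began the diet at 3 weeks of age and were kept on it for 9 weeks, and neither strain nor genotype is given in the labels. Motile cells were lysed with sonication, and 2 ng of column-purified, DNase-treated RNA was amplified over the whole transcriptome before 250 ng of cDNA went into each library. The 8 libraries of the high-fat diet arm (HFD 1 to HFD 8, same age and weeks) served only to see whether genes that moved together in CD libraries also did so where they had not been chosen. HFD 4 and HFD 8 stand apart from the rest of the series, so such values are given with and without them. The series counts 8 mice per diet, so each library was taken as 1 animal.

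A mature sperm cell carries little RNA. Most of its transcripts were made earlier in the testis, by meiotic cells and then by round and elongating spermatids, which switch on genes for protamines, the flagellum and the acrosome. Sperm then pass through the epididymis, a long duct whose epithelium secretes lipocalins, defensins, protease inhibitors and sperm-coating proteins in a set order from the initial segment and caput to the cauda, so the genes of that epithelium tell where along the duct an RNA was made.

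Genes of the epididymal lists took a larger share of the counts than genes of the late spermatid lists. Values are CPM, a gene's count divided by the library's gene total and multiplied by 1000000, that is shares of a library. The 64 measured genes of the late spermatid lists (sperm chromatin, flagellum and energy, acrosome) together took 8581 CPM ± 5142 (SD, n = 8), or 0.858% of gene counts. The name is that of the lists, and some members, such as Ldhc, are made from meiosis onward. The 58 measured genes of the 2 epididymal lists took 92991 CPM ± 24918 (SD, n = 8), or 9.30%. As TPM, which divides by exon length and holds no Rn45s, the latter sum was 236090. No TPM of the late spermatid sum is given here, so the 2 sums are compared as CPM only. Most counts belong to neither set of lists, so the sums do not measure what part of the RNA came from sperm. In bulk RNA, fewer cells of a type and less RNA per cell cannot be told apart. The lowest epididymal sum, 62257 CPM in CD 6, was above the highest late spermatid sum, 16298 CPM in CD 5. Defining sperm markers were nevertheless counted in each library, with Odf1 at 375 CPM or more and Prm1 at 124 CPM or more.

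Gene counts ran from 3172721 in CD 8 to 3704332 in CD 5, and reached 7783981 in CD 2, the deepest library. At least 1 count was seen for 16300 genes in CD 4 to 17796 in CD 2, for 14058 genes in all 8 libraries and for 19711 in any. Of 24062 genes in the table, 12310 had at least 1 CPM in all 8 libraries, 9831 had a mean of at least 10 CPM and 67 a mean of at least 1000 CPM. The 10 largest genes other than the ribosomal RNA precursor Rn45s took 6.61% (CD 6) to 12.1% (CD 2) of the gene counts that remain without Rn45s, and the 1000 largest took 49.0% to 58.8% of them. No pair of the 8 was a second copy of the same library: chi-square between counts over genes was 13.9 to 149 per degree of freedom in the 28 pairs.

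Rn45s, the precursor of ribosomal RNA, took the largest share of reads of any gene and differed widely between libraries. It took 2.31% of gene counts in CD 2, 3.42% in CD 1 and 10.1% in CD 7. In the remaining 5 libraries it took 13.9% (CD 5) to 24.1% (CD 8). Lars2, which encodes the mitochondrial leucyl-tRNA synthetase, followed it: 579 CPM in CD 2 and 816 CPM in CD 1, a median of 2779 CPM, and 3905 CPM in CD 8. There were 1.5 (CD 6) to 2.51 (CD 2) Lars2 reads for every 100 Rn45s reads. Among genes with a mean of at least 10 CPM, Lars2 had the highest correlation with Rn45s over the 8 CD libraries on the log2(CPM + 1) scale, with r = 0.99. In the 8 HFD libraries, which did not enter that choice, r was 0.94, and 0.96 without HFD 4 and HFD 8. The small RNA gene Mir6236 was also low in CD 1 (164 CPM) and CD 2 (168 CPM) and highest in CD 8 (1989 CPM). Whether these genes share reads with Rn45s was not tested.

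Secreted products of the epididymal epithelium took many of the largest shares of reads. Genes were ranked by mean CPM over the 8 libraries, a share of reads that favours long transcripts. Of the first 25, 12 belong to the epididymal lists and 0 to the late spermatid lists. Of the 67 genes with at least 1000 CPM 19 and 2 do, and of all 9831 genes with at least 10 CPM 49 and 53 do. The lists were chosen with earlier results of these data known. Spink8, a protease inhibitor of the Kazal type (chromosome 9, 109812280 to 109826633 on GRCm38), ranged from 7831 CPM in CD 6 to 18800 CPM in CD 2 with a median of 12606. Crisp1, a protein that coats sperm (chromosome 17, 40293758 to 40319207), ranged from 4179 CPM in CD 6 to 18263 CPM in CD 1 with a median of 10163. Wfdc13, of the whey-acidic-protein inhibitor family (chromosome 2, 164685107 to 164687706), ranged from 4226 CPM in CD 2 to 12434 CPM in CD 3 with a median of 8555. These 3 genes did not share an order of libraries: CD 2 was the highest for Spink8 and the lowest for Wfdc13.

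Because longer transcripts give more fragments, levels of different genes are compared as CPM per kb of merged exons. On that scale Spink8 (14756 CPM per kb) came first, followed by AY761185 (9917), a gene of a defensin-rich region, Wfdc13 (8058), Crisp1 (7454), Mir6236 (7398) and the lipocalin Lcn5 (7003). The antimicrobial gene Defb28 (3488 CPM per kb), the CUB-domain gene Cuzd1 (3391), the secreted RNase Rnase9 (3317) and the secreted glutathione peroxidase Gpx3 (3140) were also among the first 15. For comparison on this scale, Smcp, a protein of the sperm mitochondrial capsule, had 1435 CPM per kb, Dbil5, a testis acyl-CoA binding protein, 1350, Odf1, of the outer dense fibres of the tail, 1171, Prm1 946 and Prm2 829.5. Rn45s has no exon length in the annotation used and stands in no per-kb order.

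**Figure D1:**
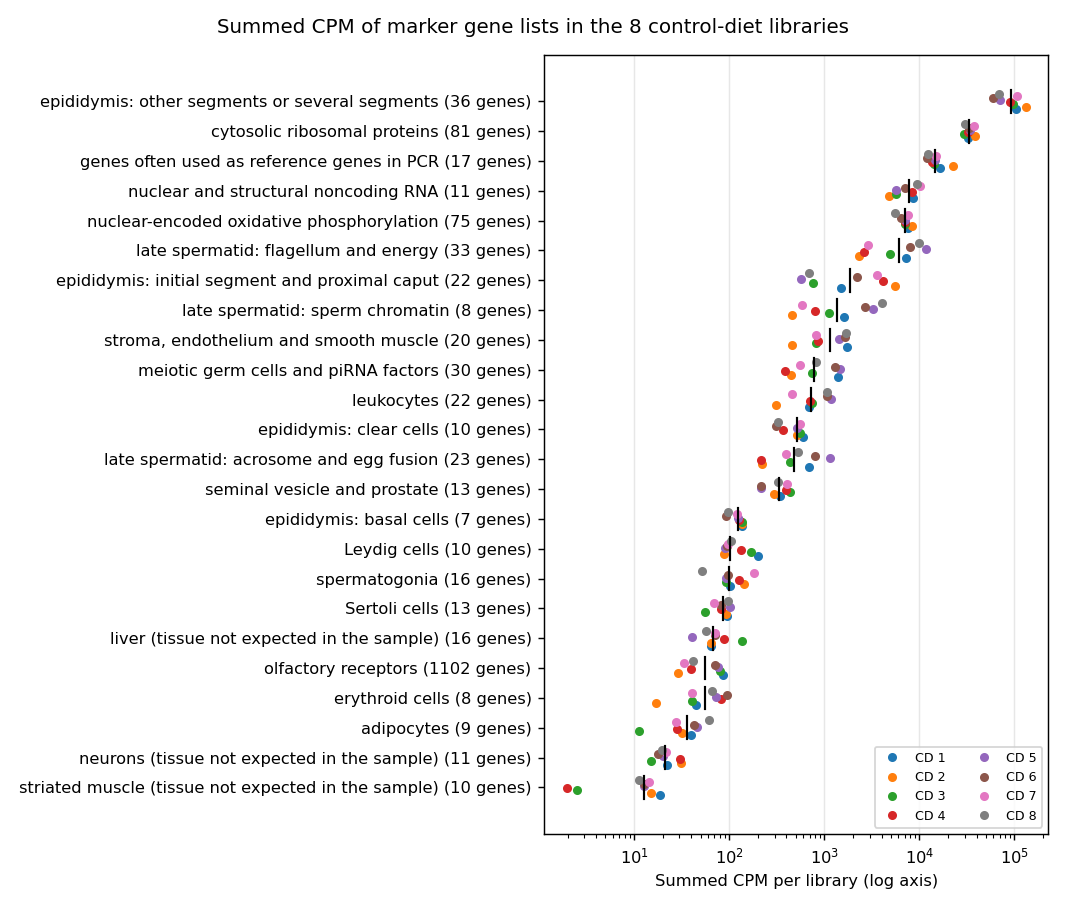
Summed CPM (x axis, log scale) of 24 gene lists in the 8 control-diet libraries, 1 point per library coloured by library and a black bar at the median, with the number of measured genes in brackets. Sums of the epididymal list other than initial segment and caput lie between 60048 and 130710 CPM, and sums of the neuron and striated muscle controls stay at or under 31.2 CPM.

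The share of transcripts that shape the sperm nucleus and tail varied several-fold between these libraries. Each animal gave 1 library, so differences between animals and between preparations cannot be told apart. The late spermatid sum was 2998 CPM in CD 2, 3618 in CD 4 and 3857 in CD 7. It was 6499 CPM in CD 3, 9508 in CD 1, 11481 in CD 6, 14393 in CD 8 and 16298 in CD 5, a 5.44-fold range. CD 2, CD 4 and CD 7 lay apart from the other 5 for the chromatin, flagellum and egg-fusion lists alike, except that CD 7 and CD 3 were close for the egg-fusion list (392 and 440 CPM). All 64 measured members had at least 1 count, 59 had at least 1 CPM in all 8 libraries and 53 had a mean of at least 10 CPM. Among these 53, the highest library was CD 5 for 34, CD 8 for 11 and CD 6 for 8, and the lowest was CD 2 for 29 and CD 4 for 18. The share of all genes that were highest or lowest in each library is not given here. These counts therefore do not set the late spermatid lists apart from other genes.

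Protamines replace histones in the elongating spermatid, and the transition proteins come before them. Prm1 (chromosome 16, 10796326 to 10805839) shares its position in part with 2 other genes of the annotation. It had 124 CPM in CD 2, a median of 382 CPM and 1356 CPM in CD 8. Prm2, next to it, had 195 CPM in CD 2, a median of 527 CPM and 1645 CPM in CD 8. The transition protein Tnp1 had 70.3 CPM in CD 2, a median of 211 CPM and 591 CPM in CD 5. CD 8 was thus the highest library for both protamines, and CD 5 for Tnp1. The ratio of Tnp1 to Prm1 counts was lowest in CD 8 (0.379) and highest in CD 5 (0.636). Hils1, a histone-like gene of spermatid nuclei, had 139 CPM in CD 5 and 17.2 to 70.3 CPM in the other 7 libraries.

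Among tail and energy genes, Smcp had 474 CPM in CD 2, a median of 1073 CPM and 2874 CPM in CD 5. Odf1 (chromosome 15, 38219203 to 38226735) had 375 CPM in CD 2, a median of 1165 CPM and 2590 CPM in CD 8. Ldhc, the lactate dehydrogenase of germ cells, had 152 CPM in CD 4, a median of 506 CPM and 1083 CPM in CD 5. CD 8, at 521 CPM of Ldhc, was near the median for this enzyme, which is made from meiosis onward, while it led for Odf1. Among acrosomal genes, Spaca1 had 16.4 CPM in CD 4 and 174 CPM in CD 5, and Acrv1 7.62 CPM in CD 4 and 76.9 CPM in CD 5. CD 8, with 31.5 CPM of Spaca1, was below the median of 50.01 CPM.

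Meiotic and piRNA-pathway genes shared much of this order of libraries, with CD 2, CD 4 and CD 7 again the lowest 3 and CD 5 the highest, and differed from it mainly in CD 1 and CD 8. Their 30 measured genes summed to 385 CPM in CD 4, a median of 784 CPM and 1450 CPM in CD 5. Mael, a piRNA factor of spermatocytes and round spermatids (chromosome 1, 166201201 to 166238747), had 70.0 CPM in CD 4, 96.5 in CD 2, 135 in CD 7, 176 in CD 3, 186 in CD 8, 326 in CD 6, 384 in CD 5 and 423 in CD 1. Ddx4, the germ-line RNA helicase, had 11.3 CPM in CD 4, a median of 38.7 CPM and 87.2 CPM in CD 6. CD 1 and CD 8 were the ends of the ratio of Prm1 to Mael counts, which rests on these 2 genes alone. There were 1.06 Prm1 counts for each Mael count in CD 1 and 7.29 in CD 8, and 1.26 to 2.73 in the other 6 libraries. The egg-fusion list had the opposite order, with 698 CPM in CD 1 and 524 CPM in CD 8. Premeiotic genes were few: of 16 spermatogonial genes 3 had a mean of at least 10 CPM, and Gfra1, a receptor subunit that other cells also express, made 68.2% of the list's 111 CPM.

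The epididymal genes did not vary alike, and 3 patterns are shown here by genes picked after their values were seen. Other members of the lists had none of them, such as Spint4 (265 CPM in CD 4, 3197 in CD 8), Cst8 (highest in CD 5, 49.1 CPM) and Bsph2 (highest in CD 1, 343 CPM). The first pattern was a high share in every library. Cuzd1 (chromosome 7, 131308554 to 131322292, overlapping 1 gene) had 5712 CPM in CD 6, a median of 7295 CPM and 10208 CPM in CD 3, a coefficient of variation (CV, SD over mean) of 0.224. Npc2, a sterol-binding secreted protein, had 3023 to 4136 CPM and a CV of 0.131. Gpx3 had 2552 CPM in CD 2, a median of 5298 CPM and 8553 CPM in CD 8. For these genes no library came near 0.

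The second pattern was high in CD 2, CD 4 and CD 7 and low in CD 3, CD 5 and CD 8. Gpx5, the secreted glutathione peroxidase of the caput (chromosome 13, 21286429 to 21292731), had 1941 CPM in CD 2, 1203 in CD 4 and 1007 in CD 7. It had 246 CPM in CD 6, 28.4 in CD 1, 14.0 in CD 5, 3.47 in CD 8 and 1.39 in CD 3, the last from 5 counts. Lcn5 (chromosome 2, 25657952 to 25661977) had the same 3 libraries on top and the same 3 at the bottom, with 1456 CPM in CD 5, a median of 5165 CPM and 17106 CPM in CD 2. Clusterin (Clu), a secreted chaperone, had 986 CPM in CD 5, a median of 3324 CPM and 10885 CPM in CD 2. Muc5b, a gel-forming mucin that is on neither epididymal list, had 279 CPM in CD 5, a median of 1723 CPM and 4046 CPM in CD 7. Lcn5, Clu and Muc5b kept 332 CPM or more in CD 3 and CD 8, where Gpx5 was at 3.47 CPM or less. In CD 5, where Gpx5 had 14.0 CPM, they kept 279 CPM or more.

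A further pattern stood out in 1 library, CD 6. Lcn8 (chromosome 2, 25653120 to 25656217), the gene that lies just before Lcn5, had 109 CPM from 394 counts in CD 6 and 0 to 2.95 CPM in the other 7 libraries. Lcn9, a further lipocalin (chromosome 2, 25823153 to 25825537), had 57.2 CPM from 206 counts in CD 6, 0.540 CPM in CD 5 and 0 counts in the other 6. The metalloprotease gene Adam28 had 62.5 CPM in CD 6 and at most 2.54 CPM elsewhere, the cystatin Cst11 71.4 CPM and at most 7.26 CPM, and its relative Cst12 33.9 CPM and at most 0.280 CPM. Rnase10 had 27.8 CPM in CD 6 and at most 4.50 CPM elsewhere, and Lcn10 9.45 CPM and at most 0.561 CPM. These genes are known from the initial segment and proximal caput, the stretch nearest the testis, and belong to that list. They were picked out after their values were seen.

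CD 6 did not lead for the rest of the proximal list. Its Gpx5, at 246 CPM, was below that of CD 2, CD 4 and CD 7, and the highest library of the 15 list members with a mean of at least 10 CPM was CD 2 for 8 of them. The share of all genes that were highest in CD 2 is not given here. The 8 list members that were more than 5-fold higher in CD 6 than in any other library (the 7 above and Etv4, which had 3 counts there and 0 elsewhere) summed to 373 CPM in CD 6 and to 1.11 CPM in CD 3 up to 11.3 CPM in CD 4 in the other 7. Over all 9831 genes with a mean of at least 10 CPM, a 5-fold gap between the highest and the next library was found for 4 genes (0.0407%), Lcn8, Cst11 and 9230104L09Rik in CD 6 and Lrrc56 in CD 5. Of the 8 list members 2 pass that minimum. With a minimum of 1 CPM, which 7 of the 8 pass, the gap was found for 86 of 15440 genes (0.557%), 24 of them with CD 6 as the highest. Of the 4 genes, 9230104L09Rik (chromosome 2, 148846711 to 148865038) lies near Cst11 (chromosome 2, 148768609 to 148771497). In the HFD libraries, which were not used to pick these genes, the same 8 summed to 3.99 to 8.5 CPM in HFD 1, HFD 2, HFD 4 and HFD 7, to 56.0 CPM in HFD 3, and to 137 to 257 CPM in HFD 8, HFD 5 and HFD 6. Lcn8 and Lcn9 were highest in HFD 5 and HFD 6, while in HFD 8 both had 0 CPM and Cst11 had 95.1 CPM.

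**Figure D2:**
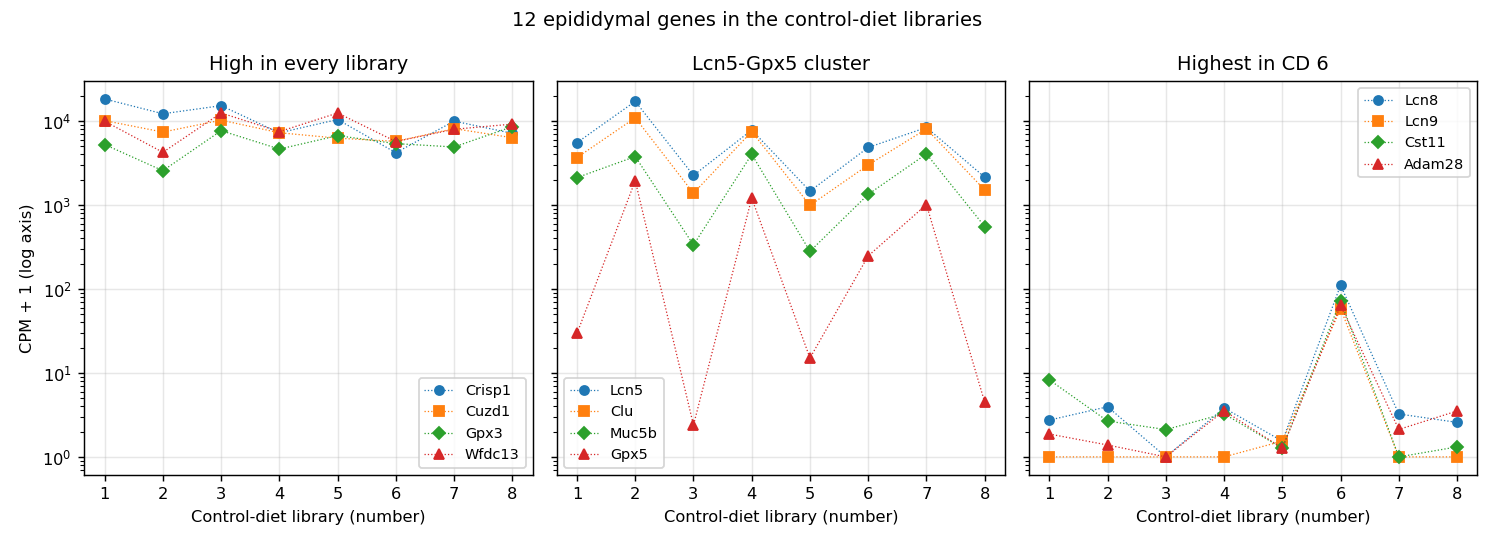
CPM + 1 (y axis, log scale) of 12 genes in the 8 control-diet libraries (x axis), 4 genes per panel. The dotted lines only join the points of a gene, since the libraries have no order. Genes of the left panel stay at 2552 CPM or more in each library, Gpx5 in the middle panel falls from 1941 CPM in CD 2 to 1.39 CPM in CD 3, and the right panel's genes are at 57.2 CPM or more in CD 6 and at 7.26 CPM or less elsewhere.

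Other cells of the male tract contributed small sums. Clear cells, the proton-secreting cells of the epididymis, were represented by 10 genes with 470 CPM ± 116 (SD, n = 8), of which carbonic anhydrase Car2, not particular to them, made 49.3%. Their pump subunit Atp6v1b1 had a mean of 4.57 CPM and Foxi1, their transcription factor, 25.4 to 61.7 CPM. Basal cell genes summed to 122 CPM ± 17.7 (SD, n = 8), the steadiest of the epididymal cell lists, with Trp63 at 26.5 CPM in CD 8 to 64.9 CPM in CD 2. Ceacam10 made 93.8% of the 330 CPM of the seminal vesicle and prostate list, 5 of whose 13 measured genes had no count in any library.

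Leukocyte genes summed to 309 CPM in CD 2, a median of 726 CPM and 1175 CPM in CD 5. Lyz2, the lysozyme of macrophages and neutrophils (chromosome 10, 117277331 to 117282321), made 43.6% of it, with 115 CPM in CD 2, a median of 332 CPM and 580 CPM in CD 8. The antigen-presentation gene H2-Aa had 25 CPM in CD 1 and 105 CPM in CD 6, so CD 1 was low for it though not for Lyz2. Stromal, endothelial and smooth muscle genes summed to 459 CPM in CD 2, a median of 1140 CPM and 1737 CPM in CD 1. Fibronectin (Fn1) made 35.4% of that sum. Sparc, a matrix protein, had 96.7 CPM in CD 2, a median of 189 CPM and 292 CPM in CD 8. CD 2 was thus the lowest library for both lists.

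Lists of testicular somatic cells and of other tissues had sums of about the size of the basal cell list or less. Sertoli cell genes summed to 84.5 CPM, Leydig cell genes to 122 CPM, erythroid genes to 57.2 CPM and adipocyte genes to 36.4 CPM on average. Liver genes, which serve as a control, summed to 74.4 CPM, of which fibrinogen Fga alone made 90.1%, neuronal genes to 22.2 CPM and striated muscle genes to 11.2 CPM. Sums of Sertoli, erythroid and adipocyte genes were near or under that of the liver control, which rests on Fga. They were above those of the neuronal and muscle controls. The alpha-globin gene Hba-a1 had 0 counts in all 8 libraries, while Alas2 of the erythroid list had 15.5 to 85.3 CPM. Alignments that were not unique were left out of the counts, so a 0 does not show that globin RNA was absent. Olfactory receptors, of which 954 of 1102 had no count, summed to 57.1 CPM, with Olfr56, which overlaps 10 annotated genes, at 29.1% of it. Steroidogenic Hsd3b1 had 17.1 CPM in CD 1 and at most 0.282 CPM elsewhere, and Star 19.7 CPM in CD 1 and at most 11.6 CPM elsewhere, in the library with the highest Leydig cell sum (199 CPM).

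Variability between the libraries, which holds that of animals and of preparations, was described for all genes. Over the 9831 genes with a mean of at least 10 CPM, the median CV was 0.30, where counting error alone would give 0.0858. The CV fell with abundance, from a median of 0.394 for genes at 10 to 20 CPM to 0.218 at 200 to 500 CPM, and was again higher, at 0.315, for the 67 genes above 1000 CPM. A CV under 0.1 was found for 98 genes (0.997%) and a CV over 1 for 59 (0.6%).

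Among genes with at least 20 CPM, the lowest CV was that of Map3k1, a kinase of stress signalling (chromosome 13, 111746428 to 111808993), which had 161 CPM in CD 1, a median of 172 CPM and 177 CPM in CD 6. Its CV of 0.0343 was no larger than the 0.0395 of counting error. The histone methyltransferase Setd2 had 130 to 148 CPM (CV 0.0463), the vesicle-traffic GTPase Rab11b 63.6 to 72.8 CPM (CV 0.0474) and the histone demethylase Kdm2a 190 to 234 CPM (CV 0.0561). Of the 98 genes with a CV under 0.1 (0.997% of all), 3 of 77 ribosomal protein genes and 0 of the 49 epididymal, 53 late spermatid and 17 meiotic genes were members, and at 0.997% lists of these sizes would hold about 1 or none. The median exon length was 7447 bases against 4665 over all. These 98 also had more reads than most, with a median of 111 CPM against 36.04 CPM over all genes.

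Ribosomal protein genes, the protein part of the translation machinery, moved little as a group. Their 81 genes summed to 29783 CPM in CD 3, a median of 32908 CPM and 38655 CPM in CD 2, a CV of 0.0963 for the sum, while Rn45s took 2.31% to 24.1%. Nuclear-encoded genes of oxidative phosphorylation summed to 5555 CPM in CD 8, a median of 7075 CPM and 8267 CPM in CD 2. Among 17 genes often chosen as reference genes in PCR, the CV ran from 0.0954 for the elongation factor Eef1a1 (4510 CPM in CD 3 to 5906 CPM in CD 7) to 0.698 for B2m (1859 CPM in CD 6 to 11367 CPM in CD 2). Hsp90ab1 (CV 0.108) and Actb (CV 0.120) were nearer to Eef1a1. B2m encodes the light chain of MHC class I, and its heavy chain gene H2-K1 was also highest in CD 2 (984 CPM), then in CD 3 (433 CPM), with 45.7 to 177 CPM in the other 6. H2 genes resemble each other, so the counting could split their reads.

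Late spermatid genes varied more than most. The 53 late spermatid genes that reached a mean of 10 CPM had a median CV of 0.659, 2.20-fold (jackknife SE 0.388) that of all 9831 genes, and leaving out single libraries gave 2.03 to 2.39. No member had a CV under 0.390. A high CV was not particular to them: the median was 0.710 for 15 initial segment and caput genes and 0.619 for 17 meiotic genes. For the 34 other epididymal genes it was 0.386. Of the 59 genes (0.6%) with a CV over 1, 9 are epididymal by the lists, 2 late spermatid and 0 ribosomal or reference genes. Among genes with at least 20 CPM the highest CV was 1.61, for Bsph1, a sperm-binding protein of the epididymis, with 373 CPM in CD 2, 0 counts in CD 3 and a median of 26.7 CPM. The amino acid transporter Slc38a5 (chromosome X, 8271133 to 8280179) had 696 CPM in CD 4, 380 in CD 2, 344 in CD 7 and at most 20.3 CPM elsewhere. The beta-defensin Defb12 had 3455 CPM in CD 2, a median of 322 CPM and 94.6 CPM in CD 8. Defensins form families of like sequence, so their split of reads is uncertain. Lrrc56, a gene of cilia assembly, had 103 CPM in CD 5 and 6.94 to 17.5 CPM elsewhere, and Scp2d1 81.8 CPM in CD 5 and 2.82 to 20.3 CPM elsewhere.

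**Figure D3:**
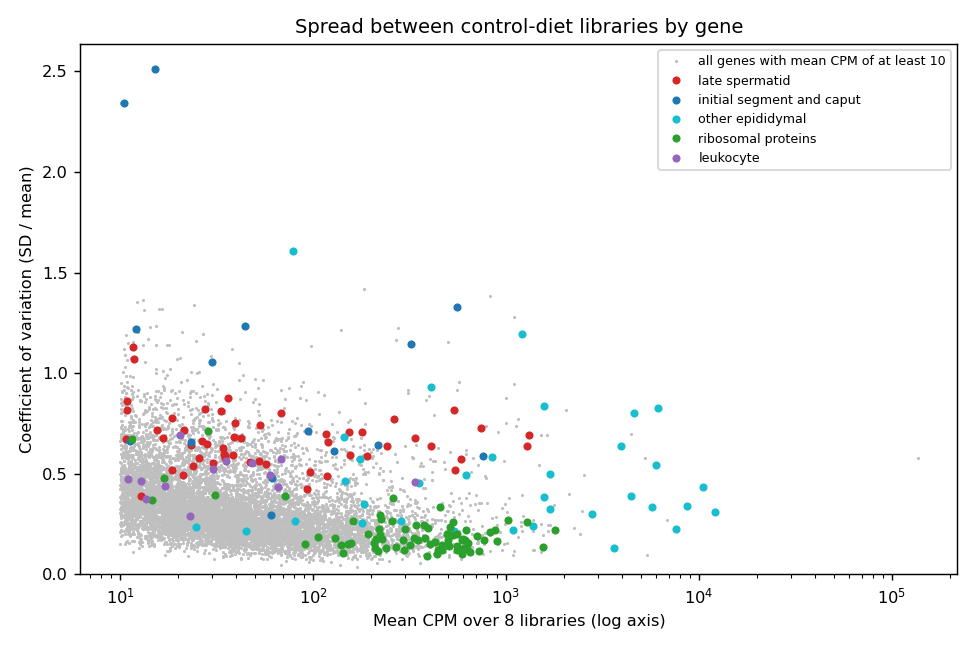
Coefficient of variation over the 8 control-diet libraries (y axis) against mean CPM (x axis, log scale), 1 point per gene for 9831 genes with a mean of at least 10 CPM. Late spermatid genes (median 0.659) lie above the median of all genes (0.30), ribosomal protein genes (median 0.172) below it, and Lcn8 and Cst11 are the highest points among the marked lists.

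To see which genes moved together, the 500 genes with the highest SD of log2(CPM + 1) were grouped by their correlation over the 8 CD libraries, and 405 of them fell into 3 clusters of at least 15 genes. The last gene taken had an SD of 0.993 and the first left out 0.992. Each cluster is called by 2 of its genes. What follows describes how the clusters were made up, and the HFD libraries give the values that the clustering did not use.

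The Odf1-Prm1 cluster held 125 genes, 15 of them on the late spermatid lists, to which 53 of all 9831 genes belong. Its mean profile was highest in CD 5 (1.23 SD above the gene mean), CD 8 (0.92) and CD 6 (0.68) and lowest in CD 2 (-1.19). Smcp, Odf1, Dbil5, Prm2 and Prm1 were its most abundant members, and its list members included Tnp1, Tnp2, Gapdhs, Akap4, Pgk2 and Oaz3. The meiotic list gave Piwil1 and Syce2, and the stromal list Fn1. The cluster also held genes known from macrophages and other somatic cells, such as Emr1 (r 0.85 with the cluster), Msr1 (0.94), Alox15 (0.81), F5 (0.82) and Ednrb (0.91). Tnp1 and 2610318N02Rik were among the genes closest to the cluster mean.

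A Dnah8-Ddx4 cluster of 154 genes shared the peak in CD 5 (1.33 SD) but differed in CD 8. It stood at -0.31 SD there, against 0.92 SD for the Odf1-Prm1 cluster, and at 0.66 SD in CD 1 and 0.81 SD in CD 6. Its lowest library was CD 4 (-1.36 SD). The axonemal dynein Dnah8 had 60.9 CPM in CD 2, a median of 221 CPM and 783 CPM in CD 6, with 7 overlapping annotated genes. The cluster took in Ddx4, the cohesin Smc1b, the synaptonemal complex gene Sycp2 and the cyclin Ccna1 of the meiotic list, which has 17 of all 9831 genes. From the late spermatid lists it took in Spaca1, Spaca7, Cylc1 and Cylc2 of the egg-fusion list and Catsper4, Akap14 and Ropn1 of the flagellum list. Ccer1, a germ cell protein, had 16.7 CPM in CD 4, a median of 69.6 CPM and 309 CPM in CD 5.

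A Lcn5-Gpx5 cluster of 126 genes ran against both. It was highest in CD 2 (1.2 SD), CD 7 (0.81) and CD 4 (0.76) and lowest in CD 5 (-1.13), CD 3 (-0.98) and CD 8 (-0.96). It held 15 of the 49 epididymal list members among all 9831 genes. They were Gpx5, Ros1, Rnase13, Lcn2, Ovch2, Spag11b, Defb15 and Defb41 of the proximal list and Lcn5, Clu, Bsph1, Defb30, Defb42, Spink11 and Spink12 of the other. Sox9 and Kit, fixed as Sertoli cell and spermatogonial markers, were members too: Sox9 had 51.9 CPM in CD 2 and 8.83 CPM in CD 8, and Kit 28.03 CPM in CD 7 and 1.35 CPM in CD 5. Of the 59 genes with a CV over 1 (0.6% of all 9831), 27 were in this cluster, 14 in the Dnah8-Ddx4 cluster and 2 in the Odf1-Prm1 cluster. The clusters hold only genes picked for a high SD in these same libraries, so that count follows in part from the choice.

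**Figure D4:**
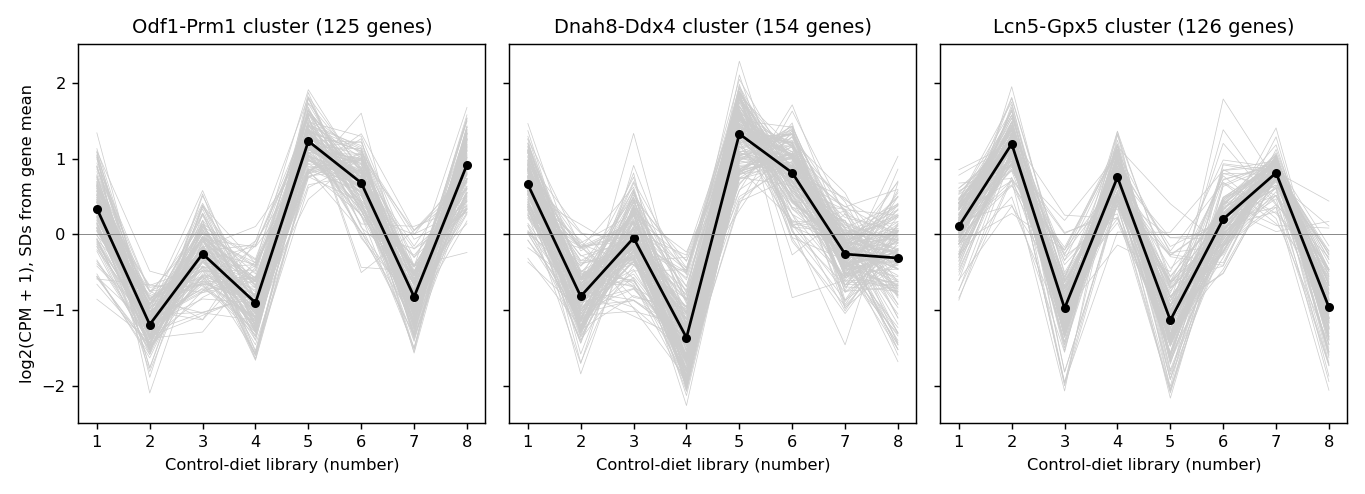
Standardised log2(CPM + 1) (y axis, SDs from each gene's mean) of the genes of 3 clusters in the 8 control-diet libraries (x axis), with grey lines for single genes and black for the cluster mean. The first 2 clusters share the peak in CD 5 and part in CD 8, at 0.92 and -0.31 SD, and the right-hand one peaks in CD 2 at 1.2 SD.

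All 3 clusters held together in libraries that had not formed them. In the 8 HFD libraries, the median r of a gene with the mean of its cluster's other genes was 0.95 for the Odf1-Prm1 cluster, 0.95 for the Dnah8-Ddx4 cluster and 0.88 for the Lcn5-Gpx5 cluster. For the 9677 to 9706 genes outside each cluster the medians were -0.44, -0.46 and 0.38. Leaving out those 2 outlying libraries, HFD 4 and HFD 8, gave 0.87, 0.82 and 0.91 inside and -0.06, 0.09 and -0.04 outside. These are descriptions over 8 or 6 libraries, whose genes share a library's depth and makeup.

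How the clusters stood to each other was less stable. The mean profiles of the Odf1-Prm1 and Dnah8-Ddx4 clusters had r = 0.79 over the CD libraries, 0.90 over the HFD libraries and 0.70 over the 6 HFD libraries without HFD 4 and HFD 8. The Lcn5-Gpx5 profile had r = -0.79 with the Odf1-Prm1 profile in CD libraries and -0.68 in HFD libraries, but 0.11 in the 6. With the Dnah8-Ddx4 profile it had -0.55, -0.79 and -0.04. Without CD 8 the Dnah8-Ddx4 and Odf1-Prm1 clusters became 1 of 298 genes, which held 89.6% of the Dnah8-Ddx4 and 71.2% of the Odf1-Prm1 genes, and they also became 1 with all 8 libraries when parted at a mean r of 0.6 (290 genes) or with the 1000 most variable genes (560 genes). Their parting thus depended on CD 8 and on these choices. Membership of the Dnah8-Ddx4 cluster was also unstable. The best-matching cluster held 48.1% of its genes with edgeR's TMM scaling, 51.3% with DESeq2's size factors, 35.1% without CD 4 and 45.5% without CD 5. With Spearman's rho it held 94.2%. Under TMM the Lcn5-Gpx5 and Odf1-Prm1 clusters kept 99.2% and 92%, and without CD 5 84.1% and 60.8%.

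Genes of the clusters differed in structure and place. Median exon length was 1699 bases in the Odf1-Prm1 cluster, 2224 in the Dnah8-Ddx4 cluster and 2961 in the Lcn5-Gpx5 cluster, against 4665 over the 9381 genes with a length. Of 122 positioned Lcn5-Gpx5 genes 12 (9.84%) were on the X chromosome, among them Slc38a5, Cldn2, Pgrmc1 and Gpc4, against 3.33% over all genes, 3.55% in the Dnah8-Ddx4 and 4.27% in the Odf1-Prm1 cluster. Runs of cluster members within 200 kb of each other included Tnp2, Prm2 and Prm1 (chromosome 16, 10787936 to 10805839). The Lcn5-Gpx5 cluster had a run of Defb47, Defb30 and Defb42 (chromosome 14, 62998077 to 63058149), a pair of Defb12 and Spag11b (chromosome 8, 19111931 to 19143010) and a pair of Defb21 and Defb19 (chromosome 2, 152572744 to 152580312).

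Promoters of spermatid genes are known for variants of the cAMP response element, the site of the CREM family of factors, so the letters before the starts of the cluster genes were read. The motif shown was chosen after the sequences were seen. Windows of 120 bases that end just before the start are given 5′ to 3′ on the gene's strand from RefSeq promoters on GRCm38.p6, with each match to TGATGTCA, or its reverse complement TGACATCA, in capitals. They belong to 4 genes that carry the Odf1-Prm1 profile: Tnp1 (chr1:73015900-73016019, minus strand), the sperm glycolytic enzyme Gapdhs (chr7:30743682-30743801, minus, 1 of 2 starts with matches), the anchoring protein of the fibrous sheath Akap4 (chrX:7067395-7067514, plus) and Lelp1 (chr3:92142755-92142874, minus), which is among the 8 genes most like Odf1.
Tnp1: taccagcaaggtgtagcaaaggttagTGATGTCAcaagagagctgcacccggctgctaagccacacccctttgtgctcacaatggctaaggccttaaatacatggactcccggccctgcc
Gapdhs: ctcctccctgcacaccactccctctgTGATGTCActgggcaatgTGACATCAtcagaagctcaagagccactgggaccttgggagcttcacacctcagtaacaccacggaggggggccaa
Akap4: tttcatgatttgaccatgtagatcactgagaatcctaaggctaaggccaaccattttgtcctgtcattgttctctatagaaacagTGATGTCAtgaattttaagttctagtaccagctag
Lelp1: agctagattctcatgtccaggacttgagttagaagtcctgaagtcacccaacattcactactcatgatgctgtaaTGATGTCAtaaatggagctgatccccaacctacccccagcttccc

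The match began 94 bases before the start of Tnp1, 45 before that of Lelp1 and 35 before that of Akap4, and Gapdhs had 2 matches, at 94 and 76 bases. Over the 250 bases before each start, on both strands, 19 of 108 windows (17.6%) of the Odf1-Prm1 cluster held these letters, 11 of 144 (7.64%) of the Dnah8-Ddx4 cluster and 0 of 114 of the Lcn5-Gpx5 cluster. The share was 2.01% of 10207 windows of all genes with a mean of at least 10 CPM and 2.93% of 32851 RefSeq promoters. Windows are not independent, and the 19 of the Odf1-Prm1 cluster belong to 18 genes. Tnp1 shares its match with 1700027A15Rik, which starts on the opposite strand, so that match was counted for both. The palindromic element TGACGTCA, which cannot match at the same letters, was in 2.78%, 2.08% and 0% of the windows of the 3 clusters in the same order, against 2.61% for all genes with at least 10 CPM. The table used held 88 of 125, 115 of 154 and 93 of 126 genes of the clusters, under 80% of each, so as a check on whole clusters it is void and the counts describe those genes alone. A match is a run of letters and not a measured site.

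Genes most like a chosen anchor gene were read at closer range. For each of 11 anchors, the 8 genes with the highest r over the CD libraries were taken, and their r in the HFD libraries was then read. All 8 genes most like Mael, which were Ldhc, Ddx4, Ddx25, Clgn, Spata4, Cmtm2a, Nudt4 and 1700123L14Rik, had r of 0.97 to 0.99 there. Without HFD 4 and HFD 8 all 8 were still over 0.7, with a median of 0.91. Over all 9831 genes 22.3% had an r over 0.7 with Mael in the 8 HFD libraries and 12.7% in the 6. Of the 8 like Odf1, 7 were over 0.7, among them Scaper (0.96), the antizyme Oaz3 (0.96) and Lelp1 (0.98), against 18.0% of all genes. In the 6 libraries 5 were, against 6.87%, with a median of 0.83. Gdf11, a growth factor, was under 0.7 in both, with r of 0.97 in CD libraries, -0.76 in the 8 HFD libraries and -0.35 in the 6. In the 6, Adc (0.49) and Dyrk1b (0.55) were also under 0.7.

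Epididymal anchors held to differing degrees. For Cuzd1, 7 of 8 genes were over 0.7 in HFD libraries, among them Prom1 (0.93, and 0.99 in the 6) and Ggta1 (0.97 and 0.92), against 31.7% of all genes. In the 6 libraries 4 were, against 9.35%, and Bsph2 went from 0.90 to 0.54. For Crisp1, 6 of 8 were, against 31.1%, and 4 of 8 in the 6, against 10.7%. Acbd7 went from 0.85 to 0.36 there, Tgoln1 from 0.92 to 0.69, and Ppp6r3 was at 0.05 and 0.15. For Gpx5, 2 of 8 were, Clpsl2 (0.996) and Gm15386 (0.91), against 0.895% of all genes, and 6 of 8 in the 6 libraries, against 4.39%. Clpsl2, a colipase-like gene, had 69.2 CPM in CD 4, 68.1 in CD 2, 57.5 in CD 7 and at most 13.6 CPM elsewhere, with 0.270 CPM in CD 5. The phospholipid methyltransferase Pemt and the inositol synthase Isyna1, also among Gpx5's 8, had r of 0.65 and 0.66, and 0.84 and 0.74 in the 6.

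The 8 genes most like Sparc were Bgn, Timp2, Knstrn, Ddr2, Dcn, Fam46c, Vim and Ctla2a. Bgn and Dcn encode matrix proteoglycans, Timp2 an inhibitor of matrix proteases and Ddr2 a collagen receptor. In HFD libraries 7 of the 8 were over 0.7, against 14.7% of all genes, and Knstrn was at 0.48. In the 6 libraries 5 were, against 5.65%, with Timp2 at 0.91, Vim at 0.86, Ddr2 at 0.54 and Fam46c at 0.38. The leukocyte anchor Lyz2 gave 0 of 8, against 0.478% of all genes, and 1 of 8 in the 6, against 2.05%. Its nearest genes in CD libraries, such as the tail gene Odf3 (0.99) and the platelet chemokine Ppbp (0.97), had r of 0.15 and 0.26 in HFD libraries, and -0.13 and 0.30 in the 6.

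For the remaining anchors the HFD values were mixed. The count over 0.7 was 2 of 8 for Malat1 and 4 of 8 for Eef1a1, near the 23.1% and 39.0% of all genes, and 0 of 8 for both in the 6 libraries, against 6.51% and 3.01%. Rn45s had 3 of 8, Lars2, Pkm and Mef2d, against 4.68%, and 2 of 8 in the 6, against 2.93%. Atp6v1b1, which rests on 4.57 CPM, had 0 of 8 in both, against 1.86% and 10.3%.

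**Figure D5:**
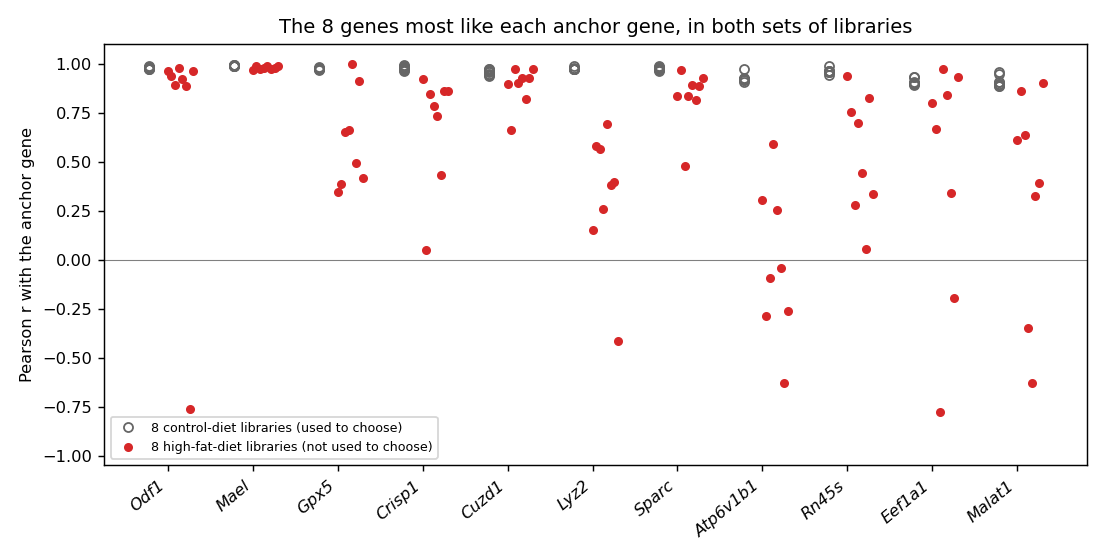
Pearson r with 11 anchor genes (x axis) of the 8 genes most like each over the 8 control-diet libraries (open circles, which chose them), and of the same genes over the 8 high-fat-diet libraries (red points, which did not). The genes of Mael stay at 0.97 to 0.99, and those of Lyz2 and Atp6v1b1 fall to 0.69 or less.

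Relations between whole components were tested for 9 measures per library, that is 36 pairs, with two-sided exact permutation tests over the 8 CD libraries and Benjamini-Hochberg adjustment. The initial segment and caput list was not among them. A single pair passed: libraries with more RNA of the other epididymal genes had less leukocyte RNA, with r = -0.93 (exact permutation p = 0.000694, adjusted p = 0.025) and rho = -0.90 (exact permutation p = 0.00456, adjusted p = 0.0869). Without CD 2 and CD 6, the farthest libraries, r was -0.92. CD 2 had 130710 CPM of these epididymal genes and 309 CPM of leukocyte genes, and CD 6 60048 and 1081 CPM. The call was lost without CD 2 (r = -0.90), CD 3 (-0.94), CD 5 (-0.92), CD 7 (-0.93) or CD 8 (-0.92), where the adjusted p of the exact permutation test was 0.243, 0.0643, 0.109, 0.0524 and 0.118 in that order. The number of pairs past the threshold was 13 without CD 1, 2 without CD 4 and 0 without CD 2, CD 3, CD 5 or CD 8. Sums that are shares of one total cannot all be high in the same library.

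Late spermatid RNA against leukocyte, stromal and meiotic RNA gave positive values that did not pass the threshold. With leukocyte genes r was 0.88 (exact permutation p = 0.00313, adjusted p = 0.0563) and rho 0.86 (exact permutation p = 0.0107, adjusted p = 0.0964). With stromal genes r was 0.88 (exact permutation p = 0.00692, adjusted p = 0.0610) and rho 0.71 (exact permutation p = 0.0576, adjusted p = 0.278). With meiotic genes r was 0.88 (exact permutation p = 0.00853, adjusted p = 0.0610) and rho 0.88 (exact permutation p = 0.00724, adjusted p = 0.0869). Without CD 2 and CD 4 these r were 0.94, 0.82 and 0.76. Stromal RNA against the gene total had r = -0.76 (exact permutation p = 0.0239, adjusted p = 0.0803), and -0.37 without CD 1 and CD 2. Under 3 other scalings, by edgeR's TMM, by DESeq2's size factors or with Rn45s left out, 8 pairs passed rather than 1, the late spermatid pairs with leukocyte, stromal and meiotic genes among them.

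Over all genes, the libraries spread along 1 main direction. The first principal component of log2(CPM + 1) held 41.6% of the variance, with CD 5 at 52.5 and CD 2 at -51.2, CD 4 at -39.0 and CD 7 at -27.7. CD 8, CD 6, CD 1 and CD 3 lay between 25.6 and 6.39. The second held 17.3% and placed CD 1 (32.0) and CD 8 (-36.5) at its ends, the pair that also differed most in Prm1 per Mael. The last of the 3, with 12.8%, set CD 3 (34.0) against CD 6 (-38.3).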

How the data were processed

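Reads of 8 control-diet and 8 high-fat-diet sperm libraries had been counted per gene by the authors, and the deposited table holds these raw counts without normalization. Per the submitters' processing notes, mm10, STAR, DESeq2 1.0.19 and HTSeq 1.0.0 were used, in roles that are not stated. Which annotation and which strand option served for counting is not given in the sources used here, and reads of overlapping genes cannot be told apart. Amplified copies cannot be told from molecules, since no molecular identifiers are named.

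Of 5 summary rows, no feature held 59.8% to 67.9% of the control-diet reads and alignments that were not unique 19.0% to 25.5%. These rows were left out, and 10.3% (CD 8) to 20.1% (CD 2) lay in genes. CPM were computed on the gene total, with a pseudocount of 1 on the log2 scale. Clusters came from average linkage on 1 minus Pearson's r, parted at a mean r of 0.7. Relations were tested over all 40320 pairings, for which the smallest p is 2.48e-05, with a threshold of 0.05 on the adjusted p. The tests and clustering were tested on simulated data. edgeR 4.0.16 and DESeq2 1.42.0 in R 4.3.3 gave alternative scalings and a dispersion, and the rest was computed with Python 3.11.15, pandas 2.3.3, numpy 2.4.6 and scipy 1.17.1. Positions and exon lengths are from GENCODE M21 on GRCm38, where 281 of 290 named genes had 1 position and 130 overlapped another gene.

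Members and lists were chosen with earlier results of these data known. Named genes were the 25 highest by mean CPM, the 15 highest per kb, up to 5 per list, the 15 highest and lowest by CV at 20 CPM or more, the 8 most like each anchor, and the 6 closest and 5 most abundant per cluster, in all 273. A further 17 were named after their values were seen. A few results are not reported here.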

Additional observations from a re-analysis of the deposited data

Results flagged for a closer look

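Of 318 values followed over the 8 control-diet libraries, 38 (11.9%) had 1 library whose gap to its nearest neighbour was over 0.526 of the whole range, a limit that chance passes in about 1 group of 20. The values share libraries, and they include genes named for a high CV and genes added because CD 6 stood apart, so the share was set in part by that choice and is not read against chance. CD 2 held 12 of them, CD 5 and CD 6 10 each, CD 1, CD 3 and CD 8 2 each, and CD 4 and CD 7 0.

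CD 6 stood apart for genes of the proximal epididymis. Lcn8 had 109 CPM there against 2.95 in the next library, Lcn9 57.2 against 0.540, Adam28 62.5 against 2.54, Cst11 71.4 against 7.26 and Cst12 33.9 against 0.280. Rnase10 had 27.8 CPM against 4.50, Lcn10 9.45 against 0.561, Spag11b 46.4 against 15.7, 9230104L09Rik 67.8 against 9.72 and Etv4 0.833, from 3 counts, against 0.

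CD 2 stood apart in depth, in a further group of epididymal genes and in the MHC class I genes B2m and H2-K1. Other antigen-presentation genes were below their medians there: H2-Aa at 45.5 CPM (median 64.5), Cd74 at 33.8 (median 66.6) and H2-Ab1 at 26.2 (median 41.9). It had a gene total of 7783981 against 3704332 in the next library, 20.1% of reads in genes against 14.0%, and 22416 CPM of reference genes against 16404. Spink11 had 4630.2 CPM against 1335, Defb30 4373 against 2139, Defb12 3455 against 1392, Bsph1 373 against 106, Lcn5 17106 against 8355 and the homeobox gene Rhox5 10.3 against 2.90. B2m had 11367 CPM against 6279, H2-K1 984 against 433 and the ubiquitin ligase gene Rnf149 1813 against 686.

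In CD 5 the values included germ cell genes: Hils1 with 139 CPM against 70.3, Actl7b 106 against 58.1, Acrv1 76.9 against 38.2, and Syce2 294 against 135. Lrrc56 had 103 CPM there against 17.5, Scp2d1 81.8 against 20.3, Morn4 70.7 against 49.2, Sh3bp4 74.0 against 39.4, Olfr112 16.2 against 7.55 and Serpina1a 4.86 against 2.22.

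In CD 1, CD 3 and CD 8 there were 2 values each. In CD 1 the steroidogenic genes Hsd3b1 (17.1 CPM against 0.282) and Star (19.7 against 11.6) stood apart. CD 3 was highest for Fga (136 CPM against 76.0) and Rnase11 (100.01 against 63.9) and CD 8 for Inhbb (6.93 against 1.39) and Lipe (42.9 against 22.5).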

How the results depend on the processing

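The 3 scalings tried moved the median gene of a library by -0.18 to 0.13 (TMM), -0.18 to 0.11 (DESeq2) and 0.03 to 0.40 (without Rn45s) on the log2 scale. The number of relations past the threshold, 1 as reported, was 8 under each of these, 0 with Spearman's rho or with standardised list means, 1 on the linear scale and 0 to 13 with 1 library left out. Leukocyte against ribosomal protein genes turned from r = -0.72 to 0.049 without Rn45s, and the cause was not tested. The 3 clusters became 5 with the 1000 most variable genes or a parting at a mean r of 0.8, 6 without the CPM minimum, and 2 (without CD 8) to 5 (without CD 2) with 1 library left out. Numbers of clusters do not show how many genes stayed together, and the Dnah8-Ddx4 cluster lost many of its genes in some of these settings. The ratio of median CVs, 2.20 for late spermatid over all genes, was 2.66 at 50 CPM or more, 1.65 from edgeR's dispersion and 2.03 to 2.39 with 1 library left out. The epididymal sum of 92991 CPM was 86808 to 97381 CPM with 1 library left out, and 236090 on the TPM scale, which weighs by exon length and holds no Rn45s. Of 300 list sums recomputed 20 moved by more than 1 SD between libraries, and of 3190 values of named genes 30 did. Genes near the minimum of 10 CPM rest on few counts, and their order of libraries is less certain. No paired analysis was possible because no groups were compared.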
